A study of Caenorhabditis elegans with 2 samples.

Results

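Genes for small nucleolar RNAs (snoRNAs) that lie inside protein-coding genes were examined for binding of UNC-130::GFP, a tagged forkhead factor, by ChIP-seq in the nematode Caenorhabditis elegans. The genes were chosen from the WBcel235 annotation alone, as nuclear genes of the snoRNA class whose whole interval falls within a protein-coding gene on either strand. They numbered 216 of 346 nuclear snoRNA genes and of 46890 nuclear genes in all, and lay in 192 distinct host genes. Each was scored by the peak of highest signal whose summit lay within 500 bp of the snoRNA 5' end. A summit was called the snoRNA's own when it lay outside the promoter window of every host, which began 1000 bp before the host 5' end and ended 200 bp after it, and a host-window summit when it lay inside one.

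The data came from 2 biological replicates of strain AGK541, which form 1 group. The strain carries armSi1, a single insertion on chromosome II that joins an UNC-130 and GFP fusion to the promoter of mex-5 and the tbb-2 3' UTR and also holds cb-unc-119(+), together with unc-119(ed3) on chromosome III and niDf199 on chromosome IV. The labels name the tag in different ways, as GFP, eGFP or GFP with FLAG. Whole hermaphrodite L4 larvae were collected 48 h after release from arrest as starved L1 larvae, and an anti-GFP antibody was used to precipitate their sonicated chromatin. The antibody field of the sample labels reads unc-130. The mex-5 promoter is active in the germline, so the transgene is not driven by the promoter of unc-130 itself, and cells of a whole larva cannot be told apart in these data. No second genotype, stage or untagged strain was compared, and 1 control file stood behind every peak list. All comparisons below are therefore descriptions that set these snoRNA genes beside other genes or the replicates beside each other.

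On the ce11 build the authors' list filtered by irreproducible discovery rate (IDR) contained 1667 peaks, of which 1648 were nuclear. The relaxed lists held 16959 entries for the pooled reads, 19058 for replicate 1 and 18463 for replicate 2, and by their label they contain background as well as peaks. All 1667 IDR peaks stood in the pooled list with the same summit and signal. The signal of a peak is a value of the authors' peak caller on an unstated scale, so it ranks peaks within a list and is not compared between lists. Read depth is unknown because the lists give no read counts. The most frequent IDR peak was 420 bp wide, and 42 of the 53 snoRNA genes described below had a peak of that width with its summit at the centre.

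snoRNAs are short nuclear RNAs that guide the chemical modification of ribosomal RNA. Box C/D snoRNAs direct ribose methylation by the methyltransferase fibrillarin, and box H/ACA snoRNAs direct pseudouridylation by dyskerin. In animals many snoRNAs are processed out of the introns of host genes, which are often genes for ribosomal and nucleolar proteins, and in C. elegans intronic snoRNA genes with promoter elements of their own have also been described. Genes transcribed by RNA polymerase III from promoters of the tRNA type carry sequence elements called box A and box B.

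Sequences just upstream of snoRNA genes with an own IDR summit are shown here because the same letters recur at about the same distance from the 5' end. Each line gives 30 bases of the RefSeq WBcel235 genome (the assembly that ce11 names) on the strand of the snoRNA, 5' to 3', and each of these snoRNA genes lies in an intron of its host. Capitals mark letters that match a box A, spelled GGC, any 2 bases, AG, any 1 base and GG, or the same with 2 bases in place of the last 1.
C04G6.12 (chrII:5105269-5105298, - strand): tgacatgtgtGGCCGAGTGGttagcgtgcg
Y43F8C.22 (chrV:19643220-19643249, - strand): tgctacccgtGGCTTAGTGGctaacgcgct
ZK546.18 (chrII:4942555-4942584, - strand): atgcacgggtGGCGCAGTGGtaacgcgttt
W08G11.6 (chrV:16370147-16370176, + strand): tacactggtGGCGCAGGCGGtaacgcgctt
K11C4.6 (chrV:6889004-6889033, + strand): tgcacgggtGGCGCAGTTGGttatcgctgc

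In the next lines capitals mark letters that match a box B, GTTCNANNC, where N stands for any base. In C04G6.12 and Y43F8C.22 it lies downstream of the box A shown above, in T24H7.6 downstream of a box A not shown, and F11A10.9 has no box A match.
C04G6.12 (chrII:5105232-5105261, - strand): cgaattgagtgcgttaGTTCAACCCgctcg
Y43F8C.22 (chrV:19643188-19643217, - strand): cctgccgcccacagcttccggGTTCGATTC
T24H7.6 (chrII:6248687-6248716, + strand): tcacacaatgtagGTTCGACCCccgcttta
F11A10.9 (chrIV:12086679-12086708, + strand): gcgcccacgaGTTCGACCCccactgcttgc

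A different pair of words recurred in other snoRNA genes of the same kind. Capitals in the following lines mark the word CGGAACCCG in the first 3 genes and the word TGTCGGC in the last 3.
C16D9.11 (chrV:8229011-8229040, - strand): tggacgtctgCGGAACCCGcgtagtgtcgg
F01D5.12 (chrII:14018483-14018512, - strand): tagcgcgccgCGGAACCCGcaagttgtccg
C05H8.3 (chrIII:5654009-5654038, - strand): taagagacggCGGAACCCGcgaggtgtcgg
Y55F3BR.9 (chrIV:867162-867191, - strand): aactcgggaggTGTCGGCcgccgcgccgac
ZK994.7 (chrV:8500499-8500528, + strand): aacccgactcaTGTCGGCcactcagatgac
C08D8.3 (chrV:8349051-8349080, + strand): aactcgtggagTGTCGGCggcgcgtgttgg

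UNC-130::GFP summits lay close to the 5' end of about 1 in 4 of these snoRNA genes. An IDR summit lay within 500 bp of 53 of the 216 snoRNA genes (24.5%, Wilson 95% interval 19.3% to 30.7%), against 4.63% of all nuclear genes. The 53 genes rested on 51 distinct summits, since 2 summits were each shared by a pair of neighbouring snoRNA genes. For 44 of the 216 the summit was the snoRNA's own (20.4%), and for the other 9 it lay in the host's promoter window. Among 10058 other noncoding genes and pseudogenes inside coding genes, 2.83% had an IDR summit outside the host window by the same rule. By that rule the share was 40.3% for tRNA genes inside coding genes and 17.5% for snRNA genes inside coding genes. Of the bases of coding genes 1.35% lay within 500 bp of an IDR summit, and of intron bases 0.902%. Intervals of shares cover counting error over genes alone, and genes that share a peak are not independent.

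Each replicate alone gave a similar share. Among the 1667 highest peaks of replicate 1, summits lay within 500 bp of 57 of the snoRNA genes (26.4%), beside 4.53% of all nuclear genes, and among those of replicate 2 of 55 (25.5%), beside 4.54%. The mean of the replicates was 25.9% ± 0.655 (SD, n = 2). A total of 51 snoRNA genes were in both of these sets, which is 51 of 57 for replicate 1 and 51 of 55 for replicate 2. In the whole relaxed lists, 112 snoRNA genes had a pooled summit (51.9%, against 19.9% of all nuclear genes), 113 a replicate 1 summit (52.3%, against 21.2%) and 114 a replicate 2 summit (52.8%, against 21.0%). Both replicate lists held a summit for 88 of the 216, against 13.1% of all nuclear genes, and 75 had no summit in any of the 4 lists.

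Other classes of short RNA genes are given beside them for scale, with no test between the classes. The 130 snoRNA genes outside coding genes had an IDR summit in 42 cases (32.3%, interval 24.9% to 40.8%), and the interval overlaps that of the snoRNA genes inside coding genes. Their mean over the replicates was 31.9% ± 1.63 (SD, n = 2). Of 290 tRNA genes inside coding genes, 120 had an IDR summit (41.4%), of 63 snRNA genes inside coding genes 11 did (17.5%), and of 106 miRNA genes inside coding genes 5 did (4.72%). Protein-coding genes had an IDR summit within 500 bp of the 5' end in 6.66% of cases. In the pooled list 250 of the 290 tRNA genes inside coding genes had a summit (86.2%), against the 51.9% of the snoRNA genes.

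**Figure D1:**
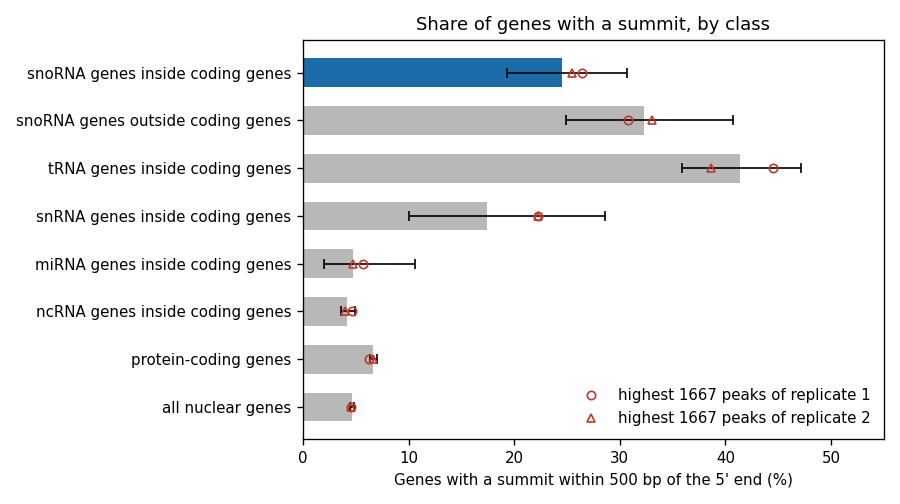
Share of genes (%) with a summit within 500 bp of the 5' end, by gene class. Bars are the IDR list with Wilson 95% intervals, and open symbols are the 1667 highest peaks of each replicate. snoRNA genes inside coding genes reach 24.5% in the IDR list, between the 17.5% of snRNA genes and the 32.3% of snoRNA genes outside coding genes.

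The own summits hugged the 5' end of the snoRNA, and most lay just upstream of it. Of the 44, 39 lay within 100 bp of the 5' end (88.6%) and 26 within 50 bp, where the rule allowed 500 bp. Their median position was -25 bp, with quartiles at -46.5 and 12.5 bp and a range from -80 to 390 bp, negative values being upstream. Summits lay upstream in 31 cases, all by 80 bp or less, inside the snoRNA in 9 and past its 3' end in 4. The 8 own summits in peaks of other widths than 420 bp lay a median of 46.5 bp from the 5' end in either direction, so the closeness was also found in peaks of other widths. The nearest annotated 5' end of any gene was that of the snoRNA itself for 36 of the 44. Another noncoding gene or pseudogene held the summit in 12 of the 44, and signal from such a gene cannot be told apart from that of the snoRNA. The closeness was not particular to snoRNA genes inside coding genes. Of the 42 snoRNA genes outside coding genes with an IDR summit, 32 had it within 100 bp of the 5' end (76.2%). The median position over those 42 was -33 bp.

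The host-window summits had another geometry. They lay from 122 to 487 bp upstream of the snoRNA, with a median of -380 bp, and none of the 9 was within 100 bp of it. All 9 snoRNA genes began 61 to 282 bp from the 5' end of the host, against 277 to 18489 bp (median 2359 bp) for the 44 with an own summit. Part of this separation follows from the windows of the rule, because a summit near a snoRNA deep inside a long host cannot fall in the host's promoter. The nearest annotated 5' end was the snoRNA's own for 0 of the 9. Signal in the IDR list ran from 72.4 to 261.5 for the host-window summits (median 101.1) and from 59.9 to 218.2 for the own summits (median 117.2), so the kinds overlapped through most of their range, and the median of all nuclear IDR peaks was 86.7.

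**Figure D2:**
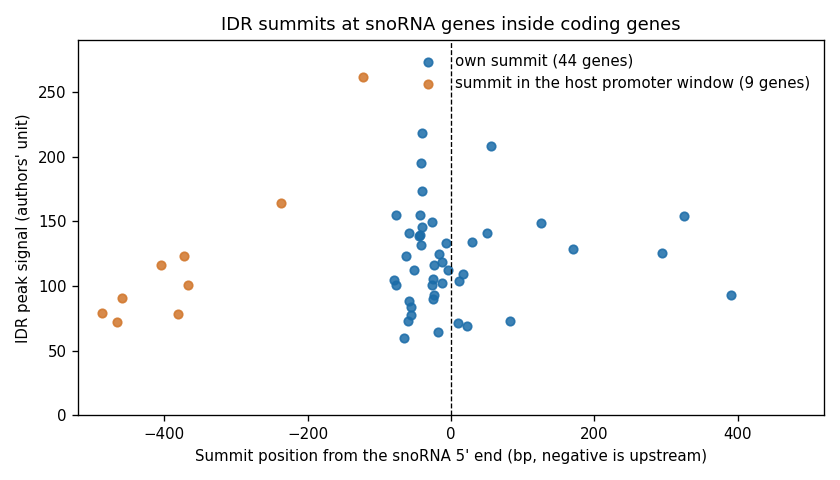
Position of the IDR summit from the snoRNA 5' end (bp, x axis) against the IDR peak signal in the authors' unit (y axis) for the 53 snoRNA genes, 44 with an own summit and 9 with a host-window summit. Own summits crowd between -80 and 100 bp, while the host-window summits spread from -487 to -122 bp.

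The highest own summit belonged to T03F7.8, a snoRNA gene of 75 bp (chrV:11314258-11314332, + strand) in an intron of cutl-18, a cuticlin-like gene on the opposite strand. Its IDR signal was 218.2 with the summit 41 bp upstream, and its signal was 110.8 in replicate 1 (rank 34) and 104.7 in replicate 2 (rank 149). Y55F3BR.9 (chrIV:867056-867133, - strand), on the opposite strand in an intron of Y55F3BR.2, followed at 208.2, with 87.9 in replicate 1 and 118.7 in replicate 2. Its summit lay 56 bp downstream of the 5' end, inside the snoRNA, and 3 bp from the annotated 5' end of another noncoding gene, Y55F3BR.17. It ranked 76 in replicate 1 and 101 in replicate 2, so these 2 genes stood near the top of both lists.

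Next came snoRNA genes in introns of hosts with varied functions. ZK994.7 (chrV:8500579-8500645, + strand), in the peroxidasin gene pxn-1 and 5690 bp from its 5' end, had an IDR signal of 195.2 with the summit at -42 bp, and 100.6 in replicate 1 and 91.2 in replicate 2. C16D9.11 (chrV:8228900-8228969, - strand) in rol-3, a receptor tyrosine kinase gene, lay 9440 bp from the host 5' end and had 173.6, with the summit at -40 bp, 71.1 in replicate 1 and 101.7 in replicate 2. The summits of ZK994.7 and C16D9.11 were far from the promoters of their hosts and within 50 bp of the snoRNA. C10C6.8 (chrIV:11474059-11474191, - strand), in the cation ATPase gene catp-8, had 155.1 at -76 bp, with 75.5 in replicate 1 and 86.4 in replicate 2. D1046.6 (chrIV:8927265-8927393, + strand) in cfim-2, which encodes a subunit of the pre-mRNA cleavage factor Im, also had 155.1, at -43 bp, with 74.0 in replicate 1 and 80.8 in replicate 2. The annotated tRNA pseudogene D1046.t1 overlaps the bases upstream of D1046.6 and holds this summit.

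Several of the remaining high own summits lay within 50 bp of the 5' end. T04A8.17 (opposite strand in ppat-1) had 145.5 at -41 bp, with 68.9 in replicate 1 and 73.0 in replicate 2. C05D2.15, in madf-11, had 139.3 at -43 bp, with 52.3 in replicate 1 and 87.3 in replicate 2, and the noncoding gene C05D2.17 also covers that summit. C27H6.5, in unc-41, a gene of synaptic vesicle recycling, had 138.4 at -45 bp, with 69.9 in replicate 1 and 67.7 in replicate 2. With T03F7.8, ZK994.7, C16D9.11 and D1046.6 this made 7 of the 15 highest own summits at -40 to -45 bp, a band chosen after the positions were seen. Over all 44 own summits 8 lay in it. ZK484.9 (opposite strand in haf-9, an ABC transporter gene) had 149.3 at -27 bp, with 61.3 in replicate 1 and 87.5 in replicate 2. C08D8.3, in C08D8.1, had 134.3 at 30 bp, with 62.6 in replicate 1 and 71.6 in replicate 2.

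A few own summits lay farther off or were shared. C51F7.3 and C51F7.4 are neighbours on the same strand of frm-7, a FERM domain gene, and shared a peak of signal 140.7 (67.5 in replicate 1, 72.3 in replicate 2), 59 bp upstream of C51F7.3 and 50 bp into C51F7.4. C27H5.9 and C27H5.10, on the opposite strand of pdl-1, shared a peak of 93.2 (41.5 in replicate 1, 49.5 in replicate 2), 24 bp upstream of C27H5.9 and 390 bp downstream of the C27H5.10 5' end, so the nearer gene is C27H5.9. Y43B11AR.7, in the ribosomal protein gene rps-4, had 153.8 (57.9 in replicate 1, 93.1 in replicate 2) at a summit 325 bp downstream, which lies 111 bp from the 5' end of the coding gene Y43B11AR.3. B0334.12, on the opposite strand of the potassium channel gene twk-5, had 149.1 (72.6 in replicate 1, 82.9 in replicate 2) at 126 bp. In all, 5 of the 44 own summits lay in the promoter window of a coding gene other than the host. The lowest own summit was that of C07A9.14, on the opposite strand of the sodium-calcium exchanger gene ncx-7, with 59.9 at -66 bp, 32.5 in replicate 1 and 38.7 in replicate 2. The lowest IDR signal of the whole list was 58.8.

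The hosts of the 9 host-window summits were named by symbol. Of these, 5 were ribosomal protein genes (rps-12, rpl-7A, rpl-24.1, rpl-4 and rpl-6), 1 was nol-56, which encodes a core protein of box C/D particles, and 1 was ubl-1, which encodes a ubiquitin-like protein fused to a ribosomal protein. For 6 of the 9 the summit also lay in the promoter window of another coding gene. Signal of the host and of that neighbour cannot be told apart there. Counted by symbol (rpl-, rps- or rpa-), ribosomal protein hosts were also frequent among all 23 snoRNA genes within 300 bp of the host 5' end, at 9 of 23. A count by symbol leaves out ubl-1 and any ribosomal protein gene with another kind of name. The 5 host-window summits above came from those 9, and the other 4 from the remaining 14. The highest was at F39B2.14 (chrI:14759178-14759412, - strand), in tmem-107, a gene of the ciliary transition zone, with an IDR signal of 261.5, 97.8 in replicate 1 and 159.8 in replicate 2. That summit, 122 bp upstream of the snoRNA and 61 bp upstream of tmem-107, also lay in the window of the ribosomal protein gene rps-26. F54E7.10 (chrIII:5679378-5679509, + strand), in rps-12, had 164.2 at -237 bp from the snoRNA, with 60.6 in replicate 1 and 104.3 in replicate 2. Its summit lay 157 bp upstream of rps-12 and nearer, at 136 bp, to the 5' end of ska-3, whose window also held it. Y24D9A.9 (chrIV:4390088-4390308, - strand), in rpl-7A, had 122.9 at 372 bp upstream, with 48.8 in replicate 1 and 76.5 in replicate 2. That summit also lay in the window of set-21. The summits of F39B2.14, F54E7.10 and Y24D9A.9 had the 3 highest signals of the 9.

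The other host-window summits were lower in every list. D1007.20, in rpl-24.1, had 116.0 (47.6 in replicate 1, 71.6 in replicate 2), and its summit lay in the window of rps-10 as well. K07C5.11 (chrV:10352710-10352836, - strand), in nol-56, had 101.1 (36.5 in replicate 1, 64.9 in replicate 2), 366 bp upstream of the snoRNA and 224 bp upstream of the host. B0041.9, in rpl-4, had 90.9 (29.8 in replicate 1, 56.7 in replicate 2). The B0041.9 summit lay 275 bp upstream of rpl-4 and 186 bp from the 5' end of B0041.8, in the windows of both. These 3 summits lay at 366 to 459 bp upstream of the snoRNA, nearer to the host 5' end than to the snoRNA. R151.11, in rpl-6, had 78.9 (29.8 in replicate 1, 45.5 in replicate 2), and its summit at 487 bp upstream was the farthest inside the limit of 500 bp. H06I04.9, in ubl-1, had 78.4 with replicates that stood apart, at rank 7228 in replicate 1 (signal 12.4) and rank 544 in replicate 2 (signal 65.0). Y37E3.21, in Y37E3.8 and in the window of the prohibitin gene phb-1, had 72.4 (30.5 in replicate 1, 41.0 in replicate 2). Just outside the limit, with no IDR summit counted, were JC8.15 in tag-115 at 505 bp, C16A3.11 in rps-13 and F54E7.11 in rps-12 at 509 bp each, and C06A1.9 in cdc-48.1 at 512 bp.

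The replicates ranked the snoRNA genes found in both relaxed lists in much the same way. All 53 genes with an IDR summit had a summit in both relaxed lists, and for 51 the rank was within the first 1667 in both. Because the authors built the IDR list from the relaxed ones, this is no separate evidence. Replicate 1 signals of the 53 ran from 12.4 to 110.8 (median 52.3) and replicate 2 signals from 36.7 to 159.8 (median 65.5). The summits of the replicates lay a median of 20 bp apart, with a range of 0 to 95 bp, and within 50 bp in 44 of 53. Across the 88 snoRNA genes found in both lists Spearman's rho between the replicate signals was 0.875, a value across genes that share library and control and are not independent replicates. The 88 include the 53 with an IDR summit. At some of the others the replicate summits lay far apart, as at K07C5.18, with 499 bp in replicate 1 and -16 bp in replicate 2. A further 25 snoRNA genes had a summit in replicate 1 alone and 26 in replicate 2 alone, and these are outside the correlation.

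The kinds of summit are also given by their rank in each replicate. The 44 own summits had a median rank of 340 in replicate 1 and 529 in replicate 2, where rank 1 is the highest signal. The 9 host-window summits had a median rank of 827 in replicate 1 and 544 in replicate 2. Gene by gene, 34 of the 44 own summits ranked nearer the top in replicate 1 and 10 in replicate 2, while 1 of the 9 host-window summits did so in replicate 1 and 8 in replicate 2. The lists differ in length, with 19058 and 18463 entries. Whether a difference between the libraries underlies this was not tested.

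**Figure D3:**
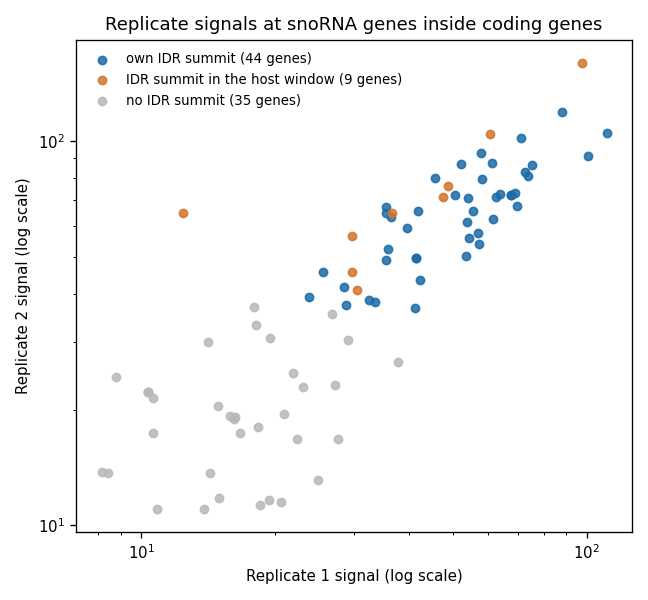
Signal in replicate 1 (x axis) against signal in replicate 2 (y axis), both in the authors' unit on log scales, for the 88 snoRNA genes with a summit in both relaxed lists: 44 own, 9 host-window and 35 with no IDR summit. The genes with an IDR summit occupy the upper right, except H06I04.9 at 12.4 in replicate 1 and 65.0 in replicate 2.

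Shares were also taken by the place of the snoRNA in its host. Of 170 snoRNA genes wholly in introns 50 had an IDR summit (29.4%), and of 46 that touch an exon 3 did (6.52%, interval 2.24% to 17.5%). None of the 19 snoRNA genes in 3' UTRs and none of the 4 in 5' UTRs had one, which for 0 of 19 allows a share of up to 16.8% by the Wilson interval. In the pooled list 10 of these 19 and 2 of these 4 had a summit, beside 112 of all 216. Pooled summits were found at 93 of the 170 in introns and at 19 of the 46 that touch an exon. On the strand opposite the host 12 of 33 had a summit (36.4%, interval 22.2% to 53.4%), and all 12 were own. On the host's strand 41 of 183 did (22.4%, interval 17.0% to 29.0%), with 32 own and 9 host-window summits, and the intervals of the strands overlap. Within introns the shares were 12 of 27 on the opposite strand (44.4%) and 38 of 143 on the same strand (26.6%). Shares of all nuclear genes by place were not computed. Most snoRNA genes that touch an exon carry gene identifiers from the same block of the annotation. Few genes of that block had an IDR summit, in introns too, so place in the host and annotation block cannot be told apart.

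Own summits occurred at every distance from the host promoter. Their share was 8 of 44 for snoRNA genes 301 to 1000 bp from the host 5' end, 12 of 40 at 1001 to 2000 bp, 11 of 48 at 2001 to 5000 bp and 12 of 61 beyond 5000 bp. Within 300 bp it was 1 of 23, and all 9 host-window summits were there. The rule shapes this bin, because any summit up to 200 bp past the host 5' end counts as host-window and cannot be own. The host's own promoter window held an IDR summit for 62 of the 216 snoRNA genes, and for 4 of the 44 with an own summit. Over all protein-coding genes the share with an IDR summit in the promoter window was 7.85%. The 62 include the 9 genes with a host-window summit by definition, and a host with several snoRNA genes is counted once for each. Among snoRNA genes with a ribosomal protein host by symbol, 6 of 19 had an IDR summit (31.6%), of which 1 was own, and among the others 47 of 197 did (23.9%), of which 43 were own.

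**Figure D4:**
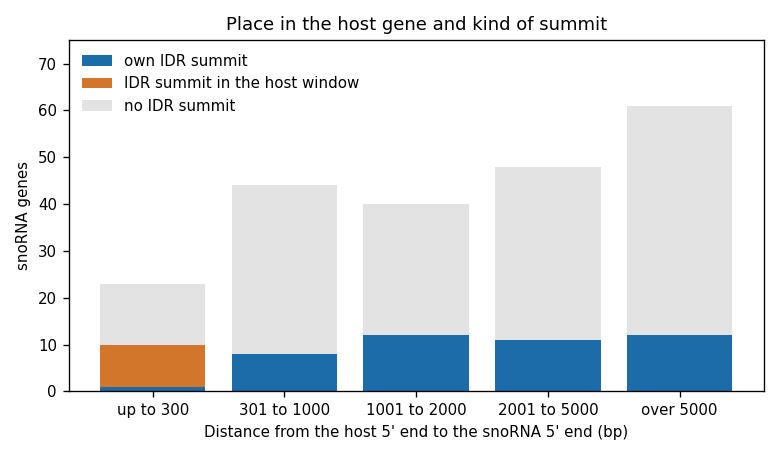
Number of snoRNA genes (y axis) by distance from the host 5' end to the snoRNA 5' end (x axis, bp), split into own IDR summits, host-window IDR summits and no IDR summit. All 9 host-window summits are in the first bin of 23 genes, and own summits number 8 to 12 in each of the bins beyond 300 bp. By the rule a summit up to 200 bp past the host 5' end cannot be own, which limits own summits in the first bin.

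By chromosome the IDR share ran from 18.2% on chromosome I (8 of 44) to 38.5% on chromosome V (15 of 39). It was 25.6% on chromosome II (11 of 43), 22.7% on chromosome III (10 of 44) and 25% on chromosome IV (9 of 36), and the Wilson intervals of these 5 chromosomes overlap. None of the 10 snoRNA genes on chromosome X had an IDR or a pooled summit, where the Wilson interval for 0 of 10 reaches 27.8%. The share of all nuclear genes was not computed by chromosome. These values therefore do not set the snoRNA genes apart from other genes of the same chromosome. All 10 on chromosome X also carry identifiers of the annotation block named above.

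A further 59 snoRNA genes had a pooled summit but no IDR summit. Their pooled signals ran from 16.6 to 58.5 with a median of 24.9. The highest was F07A11.15, in the 5' UTR of din-1, a gene for a nuclear receptor corepressor, with a pooled signal of 58.5 at 92 bp, 26.8 in replicate 1 and 35.6 in replicate 2. The highest pooled signal outside the IDR list was 58.8, so F07A11.15 lay just under the limit of that list. Of these 59, 54 had a summit outside the host window, at a median of 88.5 bp downstream of the 5' end, and 19 of the 54 lay within 100 bp. The crowding near the 5' end was thus found at 88.6% of own IDR summits and at 19 of 54 weaker ones.

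Sequence upstream of the snoRNA genes was described by letter matches on either strand, which are descriptions and not binding sites. The first search covered 300 bases, 150 on each side of the 5' end. A strict box A, spelled TGGC, any 2 bases and AGTGG, was found at 9 of the 44 snoRNA genes with an own summit (20.5%), at 0 of the 9 with a host-window summit, at 2 of the 163 without an IDR summit (1.23%), at 0.525% of all nuclear genes and at 9.80% of tRNA genes. A strict box B, spelled GGTTCGA, any 2 bases and CC, was found at 5 of the 44 (11.4%), at 1 of the 163 (0.613%), at 1.87% of all nuclear genes and at 64.9% of tRNA genes. The forkhead word GTAAACA was at 0 of the 44 and at 4.36% of all nuclear genes, and TGTTTGT at 5 of the 44 (11.4%) and at 7.70% of all nuclear genes. TATAAA was at 11 of the 44 (25%) and at 36.2% of all nuclear genes. The absence of a word says only that its letters are not in the window.

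A second search, of the 100 bases upstream, used the words printed above, which were chosen after the upstream sequences of these snoRNA genes had been read, so its counts describe and support nothing further. A box A of either spacing was found at 16 of the 44 snoRNA genes with an own summit (36.4%), at 7 of the 163 without an IDR summit (4.29%) and at 0.668% of all nuclear genes. The looser box B was found at 11 of the 44 (25%), at 7 of the 163 (4.29%) and at 2.63% of all nuclear genes, and 8 of the 44 held a box A together with it. The words CGGAACCCG or TGTCGGC were found at 11 of the 44 (25%), at 4 of the 163 (2.45%) and at 0.612% of all nuclear genes. No gene among the 44 held both a box and one of these words, so 30 of the 44 held one kind or the other (68.2%). A match of either kind was found at 1 of the 9 with a host-window summit, at 18 of the 163 (11.0%) and at 3.76% of all nuclear genes. Split the other way, 31 of 49 snoRNA genes with any of the 5 words had an IDR summit (63.3%), and 22 of 167 without them did (13.2%).

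Most matches lay at similar distances from the snoRNA, and each word lay on the snoRNA's strand in every one of the 44 genes that held it, except TGTCGGC, which did so in 6 of 7. Their first base lay at a median of -57 bp for the shorter box A, -63 bp for the longer one, -15 bp for the looser box B, -61 bp for CGGAACCCG and -48.5 bp for TGTCGGC. On the snoRNA's strand the first bases ranged from -66 to -52 bp for the shorter box A, -65 to -26 bp for the longer one, -70 to -9 bp for the looser box B, -64 to -60 bp for CGGAACCCG and -69 to -46 bp for TGTCGGC. The IDR summit lay a median of 13 bp from the centre of the longer box A, 20 bp from CGGAACCCG, 19 bp from the looser box B, 35.5 bp from the shorter box A and 50 bp from TGTCGGC. The snoRNA genes outside coding genes showed the same words, at 23 of the 42 with an IDR summit (54.8%) and at 13 of the 88 without (14.8%). Base composition moved with these groups. The 100 bases upstream had a median GC content of 56% at the 44 genes with an own summit, 45% at the 9 with a host-window summit, 39% at the 163 without an IDR summit and 31% over all nuclear genes, and its part in the word counts and in the signal was not tested.

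**Figure D5:**
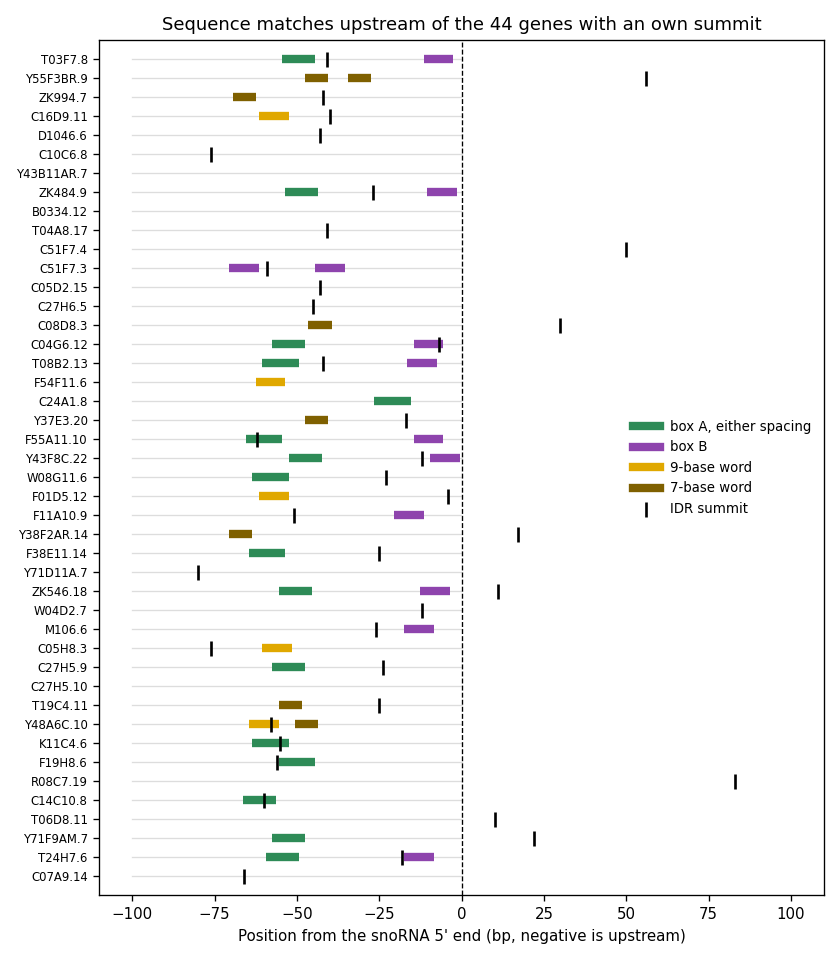
Sequence matches in the 100 bases upstream of the snoRNA 5' end (x axis, bp) for the 44 snoRNA genes with an own IDR summit, one row per gene from the highest IDR signal (top) to the lowest. Coloured blocks are the matches and black ticks the IDR summits within 100 bp of the 5' end. Most boxes A start near -60 bp and most boxes B near -15 bp, and no row holds both a box and one of the GC-rich words.

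No annotated tRNA gene accompanied these summits. None of the 53 IDR summits lay within 500 bp of an annotated tRNA or snRNA gene. Annotated tRNA pseudogenes overlapped the 100 bases upstream of 3 snoRNA genes, D1046.6, F19H8.6 and T08B2.13, and the IDR summit lay inside the pseudogene in all 3. F19H8.6, in mltn-9, had an IDR signal of 77.9 with 41.2 in replicate 1 and 36.7 in replicate 2, and T08B2.13, in the phenylalanyl-tRNA synthetase gene fars-1, had 131.9 with 45.7 in replicate 1 and 80.2 in replicate 2. Of all 209 nuclear tRNA pseudogenes, 5 had an IDR summit within 500 bp (2.39%, interval 1.03% to 5.48%).

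The proteins that assemble with snoRNAs were listed as the other genes of the pathway, 8 genes in all. An IDR summit lay in the promoter window of 6 of the 8, against 7.85% of all protein-coding genes, and a pooled summit in that of all 8, against 30.4%. The fibrillarin gene fib-1 had the highest IDR signal, 195.6 with the summit 105 bp upstream, 63.4 in replicate 1 and 132 in replicate 2. The dyskerin gene dkc-1 had 152.3 at 293 bp upstream, with 53.0 in replicate 1 and 101.7 in replicate 2. The box C/D gene nol-58 had 141.4 at 268 bp upstream, with 51.2 in replicate 1 and 89.3 in replicate 2, and nol-56 had 101.1 through the peak already given for its intronic snoRNA gene K07C5.11. At fib-1, nol-56, nol-58 and dkc-1 the summits thus lay 105 to 293 bp upstream of the gene. The H/ACA genes Y48A6B.3 and garr-1 had 77.7 (24.5 in replicate 1, 49.0 in replicate 2) and 60.8 (15.6 in replicate 1, 42.6 in replicate 2). No IDR summit was found at snu-13, with a pooled signal of 40.5, or at nola-3, with a pooled signal of 44.1.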

How the data were processed

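ChIP-seq was measured in 2 biological replicates of 1 group, per the labels. The antibody was against GFP, although the antibody field of both samples reads unc-130. The authors deposited 8 peak lists in narrowPeak form, and the 4 on ce11 were used here. Column 7 is the deposited signal of the authors' peak caller and column 10 the deposited summit offset. The tools that aligned the reads and called the peaks, and the cut-off of the IDR list, were not given in the sources used here. Columns tied to no sample numbered 0.

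Summits were joined to the Ensembl release 115 annotation of WBcel235, which ce11 names, with Python 3.11.15, scipy 1.17.1, numpy 2.4.6 and, for figures, matplotlib 3.10.9. Sequence came from the RefSeq WBcel235 genome. Mitochondrial genes were left out. The 5' end of a gene was that of its annotated interval. The joins were tested on simulated peaks. Shares carry Wilson 95% intervals. With 1 group and 2 replicates, no test between samples was possible. The named genes were the 15 of highest own signal, the 8 of highest host-window signal (the ninth was added to complete the set), the lowest IDR member, the highest pooled member without an IDR summit, members sharing a peak, and the snoRNA particle genes. The members, lists and rules were chosen with earlier results of these data known. A few further snoRNA genes are named as examples of a sequence, of an overlap with a pseudogene or of the 500 bp limit, and were chosen after their values were seen.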

Additional observations from a re-analysis of the deposited data

How the results depend on the processing

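Over 7 results, 48 alternative values were computed, of which 39 moved by less than their counting interval, the replicate SD or 1.5 times a count, and 0 changed sign. The count of 53 snoRNA genes ranged from 41 with hosts on the same strand only to 75 with a window of 1000 bp, and that of 44 own summits from 32 with hosts on the same strand only to 50 with a window of 1000 bp. It was 39 when host windows were set at every coding transcript start, and also 39 when the window of any coding gene counted. The share of snoRNA genes inside coding genes was 34.7% with a window of 1000 bp. Among the 833 IDR peaks of highest signal, the share was 19.4% inside coding genes and 22.3% outside, against 24.5% and 32.3% in the whole list. The median summit distance over all 53 snoRNA genes, own and host-window together, was -41 bp. With a window of 250 bp it was -27 bp, over 43 genes of which 41 had an own summit. It was -33.5 bp in the 833 highest IDR peaks, and -36 to -30 bp when either replicate was used alone. The 88 snoRNA genes in both replicate lists became 57 with a window of 250 bp, 138 with 1000 bp and 51 among the highest peaks of each replicate. The restriction to introns and the looser letters were added after the data were seen. Fewer entries and narrower windows can only lower a count by construction. The cause of the other shifts was not tested. No paired analysis was possible because the samples form 1 group. Unknown read depth limits what an absent summit shows.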
